A study of Homo sapiens with 12 samples.

Results

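Genes of the tubulins, the microtubule and actin motors and the actin cytoskeleton were examined in a cultured human neuroblastoma line, SH-SY5Y, that is widely used in place of neurons, after transfection with 4 tau constructs. The members were the rows of the deposited table whose gene symbol belonged to a fixed set of cytoskeleton families (tubulins, gamma-tubulin complex proteins, tubulin folding cofactors, microtubule-associated proteins, stathmins, dihydropyrimidinase-like proteins, kinesins, dyneins, dynactins, actins and actin-related proteins, Arp2/3 subunits, tropomyosins, myosins, cofilins and septins), with pseudogenes to be left out. The rule found 36 of the 1676 genes, and no row had to be left out as a pseudogene. GENCODE 29 lists 205 protein-coding genes whose symbols match the same pattern, so 17.6% of them were in the table. Nothing can be said here of the others.

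The constructs were Tau-S199E, in which glutamate in place of a serine mimics phosphorylation, Tau-K174Q, in which glutamine in place of a lysine mimics acetylation, Tau-K174Q-S199E, which carries both substitutions, and wild-type tau (Tau-WT). Each had 3 libraries, made from polyadenylated RNA 24 h after transfection with a kit that reads near the 3′ end of transcripts. All groups, Tau-WT included, received a tau construct; a group without one was not analysed here. Whether the 3 libraries of a construct are separate cultures is not said in the labels, so the p-values reflect spread between libraries that may be technical.

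Microtubules are polymers of alpha- and beta-tubulin, nucleated by gamma-tubulin complexes and moved along by kinesins and by dynein, which works with dynactin. Tau binds along microtubules in neurons and is one of several proteins that set how stable they are. Actin filaments are built from beta- and gamma-actin in non-muscle cells, branched by the Arp2/3 complex, severed by cofilin and destrin, covered by tropomyosins and pulled on by myosins.

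Per gene, the deposited values average 0 over the 12 libraries and have an SD of 1. All values below other than the deposited fold changes are therefore in SD units of the gene concerned: they show which libraries were high and which were low, not how much RNA there was, and they cannot be compared as levels between genes. Nor does a larger difference in these units mean a larger change in RNA, since each gene is divided by its own SD. In bulk RNA, fewer cells that express a gene and less RNA per cell cannot be told apart. The depth of the libraries is unknown. Every gene of the table has an adjusted p under 0.05 in the authors' deposited table. The header does not name the comparison behind the deposited fold change, and in 1676 of 1676 genes, 100%, its sign matched both the interaction of the substitutions and Tau-WT minus Tau-S199E. A negative deposited fold change thus belongs to a gene that was higher with Tau-S199E than with Tau-WT. The sign cannot tell these comparisons apart, but the shares of genes that passed here were not equal. For the interaction 97.0% of the table passed (limma, adjusted p under 0.05), and 100% with moderated variances. The contrast of Tau-S199E with Tau-WT had lower shares, 90.0% and 98.4%. The interaction was thus nearer to the deposited table, where every gene passes, but which comparison the authors used was not tested. The comparisons below are not independent of the way the table was selected. The noradrenergic neuroblastoma markers looked up (19 genes, among them DBH) had 0 members in the table, so the cell type could not be checked. Of 16 mesenchymal neuroblastoma markers 3 were in the table (S100A6, CD44 and SNAI2), and all 3 rose with Tau-S199E against Tau-WT, as did 48.3% of all tabulated genes; their part in the results below was not tested.

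Of the 36 cytoskeleton genes, 18 rose and 16 fell with Tau-S199E against Tau-WT (limma, adjusted p under 0.05), and ARPC1A and DSTN did not pass. Of all tabulated genes 90.0% passed, with 48.3% higher and 41.8% lower, so a share of 94.4% among the members is near the background. Moderated variances called 36 members and 98.4% of all genes. The members differed from each other in direction, in shares near those of the table. Both alpha-tubulins, all 3 kinesins and both dynein light chains rose. TUBB6, the gamma-tubulin complex proteins, the dynein heavy chain, all 3 tropomyosins and the septin fell. Tubulins, folding cofactors, dynein, dynactin, actin filament proteins and myosins each had members in both directions. A pattern by family was not tested. The interaction of the substitutions passed in 36 members and in 97.0% of all genes, and since its sign is that of the deposited fold change in every gene, nothing is read from it. In 34 of the 36 genes the Tau-S199E libraries did not overlap those of Tau-WT, against 94.2% of the table. The exceptions were ACTR1B and MYO19.

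**Figure D1:**
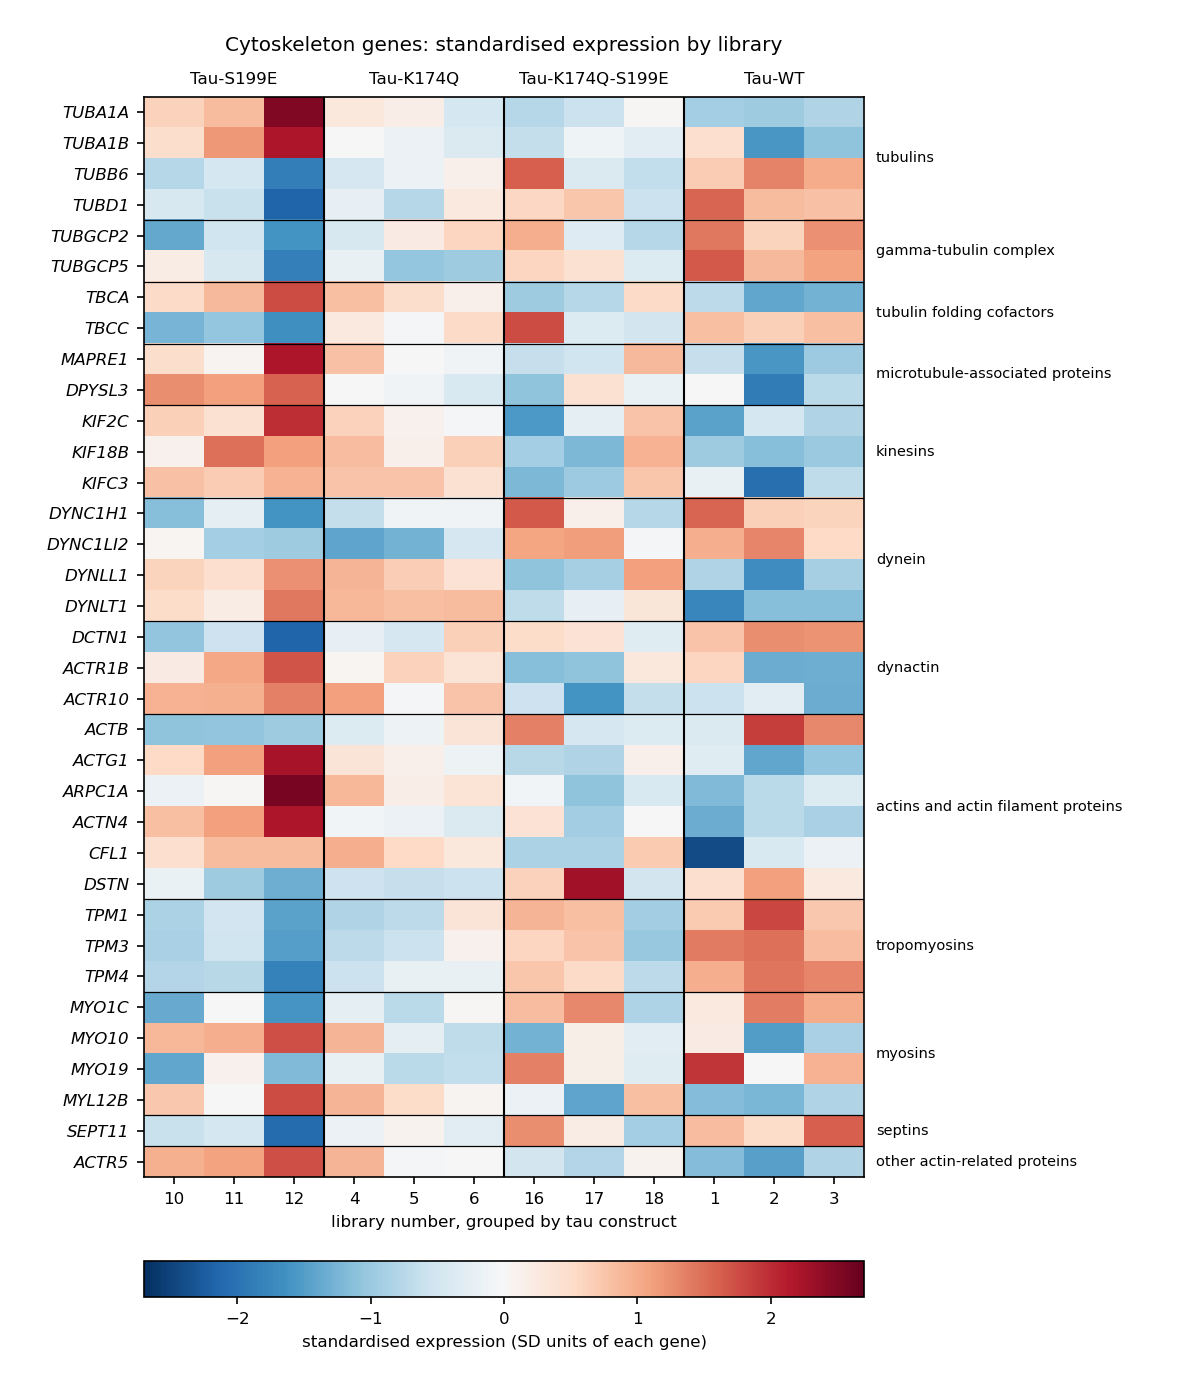
Standardised expression of 35 of the cytoskeleton genes (rows, grouped by role) in the 12 libraries (columns, grouped by construct); red is above and blue below the mean of the gene over all libraries. Tau-S199E and Tau-WT show opposite colours in nearly every row, library 12 of Tau-S199E has the deepest colour in most rows, and library 18 of Tau-K174Q-S199E differs in colour from libraries 16 and 17 in many rows.

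The deposited fold changes keep a size that the standardised values do not, though of a comparison that is not named. In the authors' deposited table they ran in size from 0.64 (TPM3) to 2.6 (KIF18B) on the log2 scale, with a median of 1.11 against 1.36 for the whole table. The 17 members with a positive sign had a median size of 1.0 and the 19 with a negative sign one of 1.28. The most negative were KIF18B (-2.6), MYL12B (-2.43), TUBA1A (-2.27) and ACTR5 (-2.16), and the most positive DYNC1H1 (1.65) and TUBGCP5 (1.63).

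**Figure D2:**
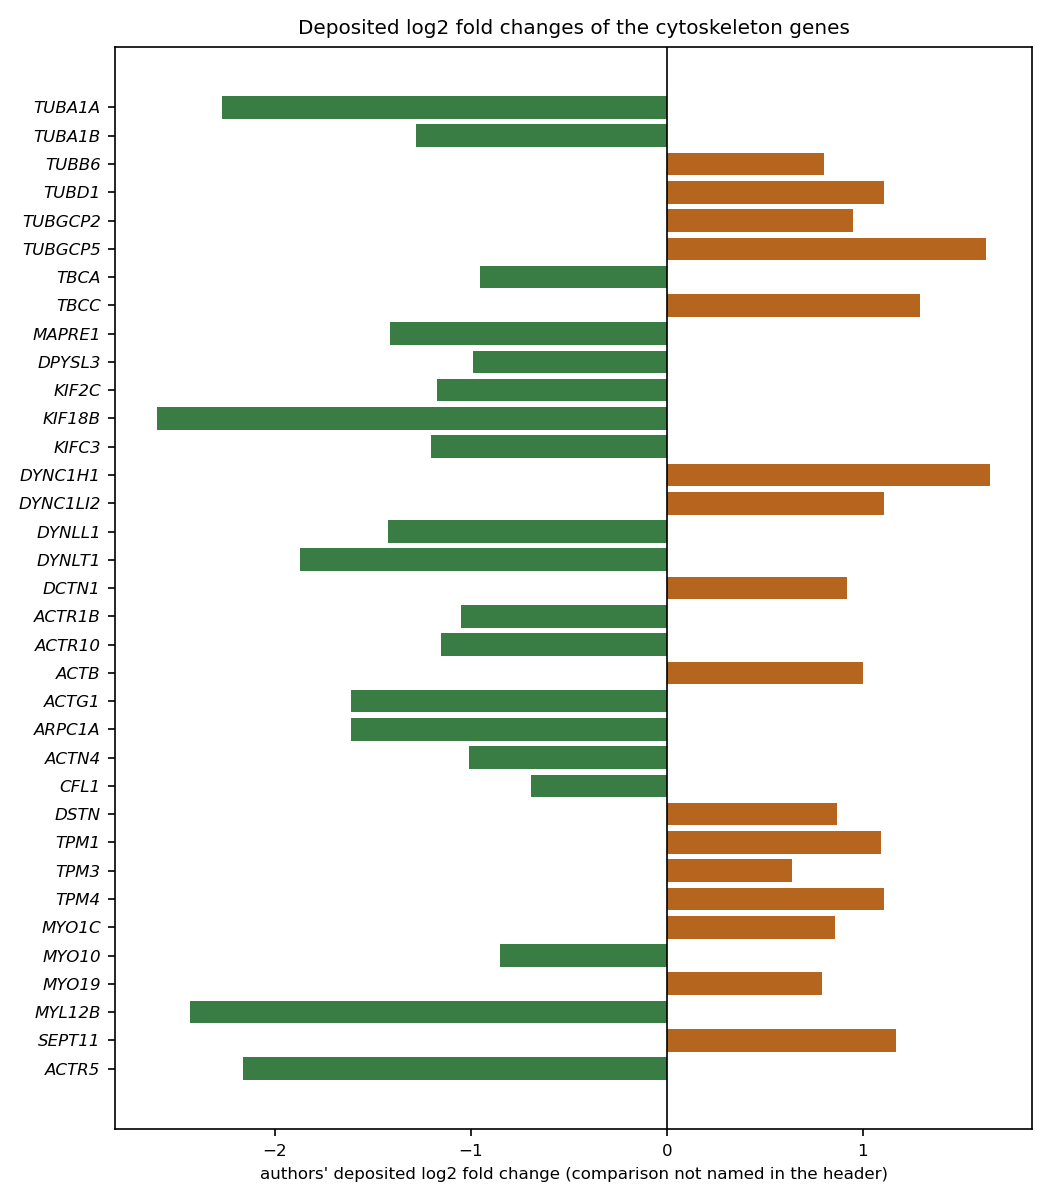
Log2 fold change of 35 of the cytoskeleton genes in the authors' deposited table, green where negative and brown where positive; the comparison is not named in the header. KIF18B has the most negative bar at -2.6 and DYNC1H1 the longest positive bar at 1.65.

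The tubulins in the table moved in both directions. Both alpha-tubulin genes, TUBA1A and TUBA1B, which encode the alpha subunit of the tubulin dimer, rose with Tau-S199E, whereas TUBB6, a beta-tubulin, and TUBD1, the delta-tubulin known from centrioles, fell. TUBA1A (chr12:49184796-49189324, minus strand, GRCh38) stood at 0.63, 0.86 and 2.49 SD units in Tau-S199E libraries 10, 11 and 12, at 0.29, 0.18 and -0.47 in Tau-K174Q libraries 4, 5 and 6, at -0.77, -0.58 and 0.03 in Tau-K174Q-S199E libraries 16, 17 and 18, and at -0.91, -0.95 and -0.82 in Tau-WT libraries 1, 2 and 3. All 3 Tau-S199E libraries lay above all others, library 12 far above, and the Tau-WT libraries lay close together. Tau-S199E differed from Tau-WT by 2.22 (SE 0.48, limma adjusted p = 0.0101). The log2 fold change in the authors' deposited table, whose comparison is not named, was -2.27.

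TUBA1B (chr12:49127782-49131397, minus strand) had 0.47, 1.18 and 2.19 SD units with Tau-S199E, 0.00, -0.16 and -0.40 in Tau-K174Q cells, -0.65, -0.12 and -0.29 with Tau-K174Q-S199E, and 0.46, -1.58 and -1.09 with Tau-WT. Library 1 of Tau-WT stood apart from libraries 2 and 3 and came within 0.01 of the lowest Tau-S199E library. The difference was 2.01 (SE 0.58, limma adjusted p = 0.016). TUBA1A and TUBA1B lie 53398 bases apart on chromosome 12, and their coding sequences, both 1353 bases long, are 97.2% identical. Over the last 300 bases of the annotated transcripts, where a 3′ kit reads, 20.7% of the 31-base words of TUBA1A and 25.2% of those of TUBA1B also occur in transcripts of other genes, mostly each other's and those of TUBAP2 and TUBA1C. Both windows reach into coding sequence, since the annotated 3′ untranslated regions have 214 and 176 bases. How the authors' counting divided such reads is not stated, and how many reads it concerns was not measured. The values of each alpha-tubulin are therefore uncertain.

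TUBB6 averaged -1.04 ± 0.73 SD units with Tau-S199E, -0.16 ± 0.29 with Tau-K174Q, 0.19 ± 1.24 with Tau-K174Q-S199E and 1.01 ± 0.33 with Tau-WT (SD, n = 3 each). TUBD1 averaged -1.07 ± 0.96, -0.24 ± 0.51, 0.24 ± 0.72 and 1.07 ± 0.44 with the constructs in the same order. With Tau-S199E against Tau-WT, TUBB6 differed by -2.05 and TUBD1 by -2.14 SD units (limma adjusted p = 0.0178 and 0.013). TUBB6 shared none of the 31-base words at its transcript end with another gene. The calls of TUBA1B and TUBB6 were lost without library 12 (limma adjusted p = 0.0545 and 0.0621), that of TUBB6 also without Tau-WT library 2 (0.053), and that of TUBA1B also in the fit on the 2 constructs alone (0.0738).

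Proteins that nucleate and assemble tubulin also moved in both directions. TUBGCP2 and TUBGCP5 encode subunits of the gamma-tubulin complexes that start new microtubules, and both fell. TUBGCP2 had -1.38, -0.53 and -1.61 SD units with Tau-S199E, -0.43, 0.22 and 0.59 in Tau-K174Q cells, 0.99, -0.35 and -0.77 with Tau-K174Q-S199E, and 1.42, 0.61 and 1.24 with Tau-WT, a difference of Tau-S199E from Tau-WT of -2.26 (SE 0.52, limma adjusted p = 0.0104). TUBGCP5 had 0.20, -0.43 and -1.85 SD units with Tau-S199E, -0.19, -1.05 and -0.95 in Tau-K174Q cells, 0.59, 0.42 and -0.36 with Tau-K174Q-S199E, and 1.65, 0.88 and 1.08 with Tau-WT, a difference of -1.90 (SE 0.54, limma adjusted p = 0.0158) whose call was lost in the fit on the 2 constructs alone (0.0554). TUBGCP5 was about as low with Tau-K174Q as with Tau-S199E, whereas TUBGCP2 was near its mean with Tau-K174Q.

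TBCA and TBCC encode cofactors that fold tubulin, TBCA by holding beta-tubulin and TBCC by acting on the assembled complex. TBCA rose, with 0.52, 0.88 and 1.77 SD units with Tau-S199E, 0.81, 0.48 and 0.14 in Tau-K174Q cells, -0.96, -0.77 and 0.52 with Tau-K174Q-S199E, and -0.70, -1.41 and -1.28 with Tau-WT (difference 2.19, SE 0.47, limma adjusted p = 0.01). TBCC fell, with -1.25, -1.05 and -1.65 SD units with Tau-S199E, 0.26, -0.03 and 0.52 in Tau-K174Q cells, 1.77, -0.36 and -0.50 with Tau-K174Q-S199E, and 0.82, 0.65 and 0.82 with Tau-WT (difference -2.08, SE 0.55, limma adjusted p = 0.0132). In TBCC the Tau-S199E libraries lay below all 9 others. Of the words at the end of TBCA 27% are shared with its pseudogenes TBCAP1 and TBCAP2, and of those at the end of TBCC 10.7% occur in transcripts of 121 other genes. The TBCA window reaches into coding sequence, since its annotated 3′ untranslated region has 151 bases.

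The microtubule-associated members rose. MAPRE1 encodes the end-binding protein that tracks growing microtubule plus ends. It had 0.48, 0.07 and 2.19 SD units with Tau-S199E, 0.80, 0.01 and -0.10 in Tau-K174Q cells, -0.62, -0.53 and 0.88 with Tau-K174Q-S199E, and -0.63, -1.57 and -0.99 with Tau-WT (difference 1.98, SE 0.64, limma adjusted p = 0.0222). DPYSL3, a collapsin response mediator protein of axon growth, had 1.26, 1.11 and 1.59 SD units with Tau-S199E, 0.02, -0.10 and -0.42 in Tau-K174Q cells, -1.09, 0.42 and -0.18 with Tau-K174Q-S199E, and -0.02, -1.88 and -0.72 with Tau-WT (difference 2.20, SE 0.51, limma adjusted p = 0.0104). DPYSL3 was high in all 3 Tau-S199E libraries alike, while the MAPRE1 mean rested largely on library 12. The call of MAPRE1 was lost without library 12 (limma adjusted p = 0.0648), without Tau-WT library 2 (0.0669) and in the fit on the 2 constructs alone (0.0599).

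All 3 kinesins rose. KIF18B and KIF2C are mitotic kinesins that act on microtubule ends, KIF2C by depolymerising them at kinetochores, and KIFC3 is a minus-end-directed kinesin. KIF18B (chr17:44924709-44947711, minus strand) had 0.11, 1.48 and 1.11 SD units with Tau-S199E, 0.84, 0.13 and 0.64 in Tau-K174Q cells, -0.92, -1.21 and 0.94 with Tau-K174Q-S199E, and -0.97, -1.15 and -1.0 with Tau-WT. Library 18 of Tau-K174Q-S199E lay with the constructs of 1 substitution, and libraries 16 and 17 lay with Tau-WT. KIFC3 (chr16:57758217-57863053, minus strand) showed the same arrangement, with 0.79, 0.68 and 0.94 SD units with Tau-S199E, 0.76, 0.78 and 0.42 in Tau-K174Q cells, -1.21, -0.98 and 0.74 with Tau-K174Q-S199E, and -0.19, -2.04 and -0.69 with Tau-WT.

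Against Tau-WT the rises with Tau-S199E were 1.94 for KIF18B (SE 0.58), 1.78 for KIFC3 (SE 0.59) and 1.93 for KIF2C (SE 0.64), with limma adjusted p = 0.0177, 0.0243 and 0.024. KIF2C averaged 1.02 ± 0.85 SD units with Tau-S199E, 0.24 ± 0.35 with Tau-K174Q, -0.34 ± 1.16 with Tau-K174Q-S199E and -0.91 ± 0.50 with Tau-WT. All 3 calls were lost without library 12 (limma adjusted p = 0.0566, 0.0685 and 0.0808), that of KIFC3 also without Tau-WT library 2 (0.0726) or Tau-S199E library 10 (0.0503), and that of KIF2C without Tau-WT library 1 (0.0691). With libraries centred on their medians the calls of KIF2C (limma adjusted p = 0.0507) and KIFC3 (0.0571) were lost too. TPX2, a spindle assembly factor on the list of other cytoskeleton genes, fell by 2.18 SD units in the same comparison (limma adjusted p = 0.0104). It was picked after its value was seen, from a list of which 15 genes rose and 12 fell.

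The subunits of cytoplasmic dynein moved in both directions. The heavy chain DYNC1H1, which holds the motor, and the light intermediate chain DYNC1LI2, which links it to cargo adaptors, fell. The light chains DYNLL1 and DYNLT1, small dimeric subunits that also bind other proteins, rose. DYNC1H1 (chr14:101964510-102056443, plus strand) had -1.16, -0.25 and -1.61 SD units with Tau-S199E, -0.65, -0.10 and -0.10 in Tau-K174Q cells, 1.65, 0.14 and -0.76 with Tau-K174Q-S199E, and 1.57, 0.65 and 0.61 with Tau-WT. DYNC1LI2 (chr16:66720893-66751798, minus strand) had 0.06, -0.92 and -0.96 SD units with Tau-S199E, -1.42, -1.27 and -0.45 in Tau-K174Q cells, 1.07, 1.12 and -0.06 with Tau-K174Q-S199E, and 0.99, 1.31 and 0.53 with Tau-WT. Both genes were high with Tau-WT in every library, and the mean of DYNC1LI2 was lower with Tau-K174Q than with Tau-S199E.

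DYNLT1 (chr6:158636474-158644739, minus strand) had 0.50, 0.19 and 1.43 SD units with Tau-S199E, 0.89, 0.81 and 0.86 in Tau-K174Q cells, -0.69, -0.23 and 0.33 with Tau-K174Q-S199E, and -1.77, -1.16 and -1.16 with Tau-WT. DYNLL1 had 0.60, 0.46 and 1.23 SD units with Tau-S199E, 0.92, 0.67 and 0.39 in Tau-K174Q cells, -1.09, -0.90 and 1.10 with Tau-K174Q-S199E, and -0.81, -1.67 and -0.90 with Tau-WT. In both light chains all libraries of the constructs with 1 substitution were above 0 and all libraries of Tau-WT below it. Over all table genes of negative deposited sign the means were 0.96 with Tau-S199E, 0.39 with Tau-K174Q and -0.99 with Tau-WT, so this arrangement is not particular to the light chains. With Tau-S199E against Tau-WT, DYNLT1 rose by 2.07 SD units (SE 0.37, limma adjusted p = 0.00969) and DYNLL1 by 1.89 (SE 0.57, limma adjusted p = 0.0178), while DYNC1H1 fell by 1.95 (SE 0.63, limma adjusted p = 0.0221) and DYNC1LI2 by 1.55 (SE 0.45, limma adjusted p = 0.0163). The calls of DYNC1H1, DYNC1LI2 and DYNLL1 were lost without library 12 (limma adjusted p = 0.0745, 0.0563 and 0.0609), and also without Tau-WT library 1 or Tau-S199E library 10 for DYNC1H1 (0.065 and 0.0509) and without Tau-WT library 2 for DYNC1LI2 and DYNLL1 (0.0502 and 0.0559); that of DYNLL1 was lost on ranks as well (0.0503). At the annotated transcript end of DYNC1H1 17.8% of the 31-base words also occur in transcripts of 11 other genes. How many reads of DYNC1H1 this concerns was not measured, so its value is uncertain.

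Dynactin, the activator of dynein, also had members that moved in opposite directions. DCTN1, its large arm that contacts dynein and microtubules, fell, and ACTR1B and ACTR10, actin-related proteins of its filament and pointed end, rose. DCTN1 (chr2:74361154-74392087, minus strand) had -1.06, -0.56 and -2.17 SD units with Tau-S199E, -0.23, -0.45 and 0.65 in Tau-K174Q cells, 0.50, 0.40 and -0.32 with Tau-K174Q-S199E, and 0.77, 1.26 and 1.21 with Tau-WT (difference -2.34, SE 0.47, limma adjusted p = 0.00981). The Tau-S199E libraries were the lowest of the 12 and the Tau-WT libraries the highest. ACTR10 had 0.93, 0.95 and 1.35 SD units with Tau-S199E, 1.11, -0.03 and 0.77 in Tau-K174Q cells, -0.56, -1.62 and -0.65 with Tau-K174Q-S199E, and -0.58, -0.31 and -1.35 with Tau-WT (difference 1.82, SE 0.41, limma adjusted p = 0.0104), and its Tau-K174Q-S199E mean did not lie between those of Tau-S199E and Tau-WT. That mean lay between them in 34 members, against 91.8% of the table, and DSTN was the other exception. ACTR1B averaged 0.99 ± 0.74, 0.35 ± 0.28, -0.65 ± 0.81 and -0.69 ± 1.11 SD units with the constructs in the same order (difference 1.68, SE 0.65, limma adjusted p = 0.0377). Its Tau-WT library 1, at 0.59, lay within the range of Tau-S199E, and its call was lost on leaving out any of 7 libraries, Tau-WT 2 and 3, Tau-S199E 11 and 12, and Tau-K174Q 4, 5 and 6, with limma adjusted p from 0.051 to 0.119. It was also lost in the fit on the 2 constructs alone (0.101), with libraries centred on their medians (0.078) and on ranks (0.0654).

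**Figure D3:**
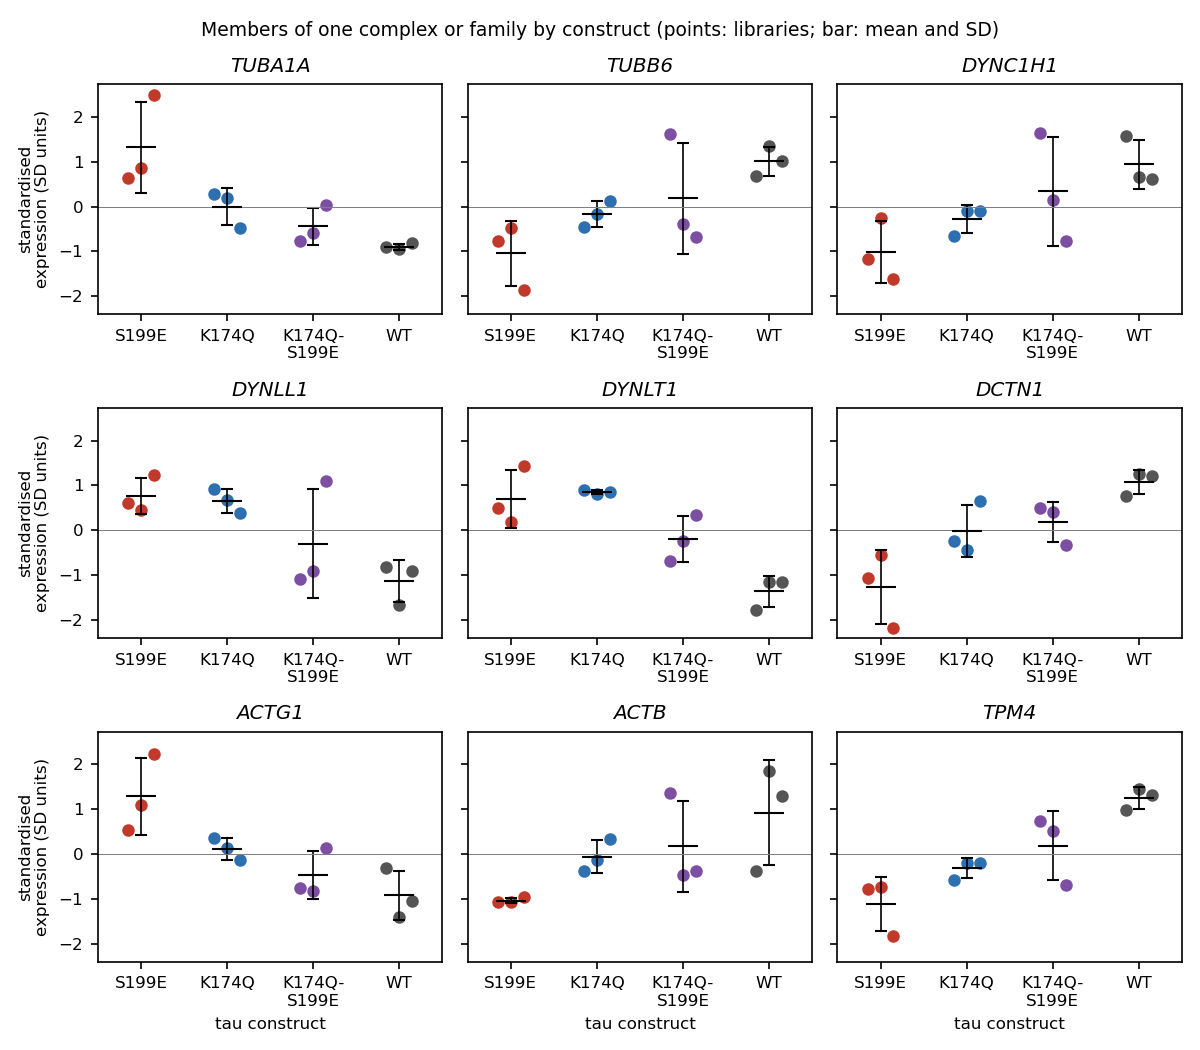
Standardised expression (SD units) of 9 cytoskeleton genes by construct; points are libraries, and the bar shows the mean and SD of 3 libraries. TUBA1A, DYNLL1, DYNLT1 and ACTG1 are highest with the constructs of 1 substitution and lowest with Tau-WT, and TUBB6, DYNC1H1, DCTN1, ACTB and TPM4 show the opposite arrangement; Tau-K174Q-S199E scatters most in DYNLL1, DYNC1H1 and TUBB6.

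The cytoplasmic actins moved apart. ACTG1, gamma-actin, rose and ACTB, beta-actin, fell with Tau-S199E, although their coding sequences of 1125 bases are 91.3% identical. ACTG1 (chr17:81509971-81523847, minus strand) had 0.54, 1.10 and 2.22 SD units with Tau-S199E, 0.35, 0.13 and -0.14 in Tau-K174Q cells, -0.75, -0.82 and 0.14 with Tau-K174Q-S199E, and -0.32, -1.40 and -1.05 with Tau-WT (difference 2.21, SE 0.48, limma adjusted p = 0.0101). ACTB (chr7:5527147-5563784, minus strand) had -1.08, -1.07 and -0.97 SD units with Tau-S199E, -0.37, -0.14 and 0.34 in Tau-K174Q cells, 1.35, -0.46 and -0.37 with Tau-K174Q-S199E, and -0.39, 1.86 and 1.30 with Tau-WT (difference -1.96, SE 0.65, limma adjusted p = 0.0243). The 3 Tau-S199E libraries of ACTB were the lowest of the 12 and nearly equal, while Tau-WT library 1 lay far below libraries 2 and 3. At the transcript ends the actins share little with other genes, 1.85% of the words of ACTG1 and 3.7% of those of ACTB, and not with each other. The call of ACTB was lost without Tau-WT library 2 (limma adjusted p = 0.0768) or 3 (0.0649), without Tau-S199E library 10 (0.0518), without library 12 (0.0609) and in the fit on the 2 constructs alone (0.0568).

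The promoters of ACTG1 and of the tropomyosin gene TPM4 are shown because each held a CArG box. This is the site known for the serum response factor SRF, which drives many actin cytoskeleton genes. Of the 32 member promoters searched, only these 2 held it. For each member only the first listed promoter was searched, and other starts of the same gene were not. The window runs from 250 bases before to 50 bases after the annotated start, 5′ to 3′ on the strand of the gene, from RefSeq on GRCh38.p14, and the CArG box is in capitals. It begins 94 bases before the start in ACTG1 (chr17:81512750-81513049, minus strand) and 173 bases before it in TPM4 (chr19:16067288-16067587, plus strand).
ACTG1: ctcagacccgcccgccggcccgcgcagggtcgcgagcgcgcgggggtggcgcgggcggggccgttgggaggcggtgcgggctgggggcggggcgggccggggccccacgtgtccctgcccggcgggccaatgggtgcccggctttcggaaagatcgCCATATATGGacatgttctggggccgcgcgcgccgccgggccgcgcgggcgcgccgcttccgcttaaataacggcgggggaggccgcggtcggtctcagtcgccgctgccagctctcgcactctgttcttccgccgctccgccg
TPM4: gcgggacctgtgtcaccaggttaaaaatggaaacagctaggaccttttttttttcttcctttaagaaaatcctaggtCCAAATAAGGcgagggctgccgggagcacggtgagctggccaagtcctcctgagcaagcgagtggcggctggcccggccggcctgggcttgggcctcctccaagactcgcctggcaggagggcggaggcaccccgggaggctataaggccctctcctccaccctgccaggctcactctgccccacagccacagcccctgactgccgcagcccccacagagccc
The box, whose pattern is its own reverse complement, occurs in 1.29% of the 35116 RefSeq promoters of this length. It occurs in 1.64% of the 1282 promoters matched to genes of the deposited table. The former share counts every listed promoter, whereas the latter takes only the first of each gene. ACTG1 rose and TPM4 fell with Tau-S199E, so the 2 genes that hold the box moved in opposite directions. SRF itself was in the table and rose by 1.88 SD units (SE 0.66, limma adjusted p = 0.0282). It was picked after its value was seen, and its part in the values of these genes was not tested. The search did not include ACTB, KIFC3 and ACTR10.

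Of the proteins that build on actin filaments, ACTN4, an alpha-actinin that crosslinks filaments, rose by 2.36 SD units with Tau-S199E (SE 0.43, limma adjusted p = 0.00969). It had 0.82, 1.11 and 2.19 SD units with Tau-S199E, -0.08, -0.15 and -0.39 in Tau-K174Q cells, 0.38, -0.94 and 0.00 with Tau-K174Q-S199E, and -1.33, -0.73 and -0.88 with Tau-WT, so that the Tau-S199E libraries lay above all 9 others. ARPC1A, a subunit of the Arp2/3 complex, had -0.16, 0.03 and 2.57 SD units with Tau-S199E, against -1.19, -0.73 and -0.37 with Tau-WT. Its difference of 1.57 (SE 0.69) did not pass (limma adjusted p = 0.0583), and library 12 lay far above libraries 10 and 11. It passed with moderated variances (limma adjusted p = 0.00594), on ranks (0.0239) and without Tau-S199E library 10 (0.0381) or 11 (0.0455).

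Cofilin and destrin, closely related proteins that sever and depolymerise actin filaments, had opposite signs. CFL1 rose by 1.72 SD units with Tau-S199E (SE 0.65, limma adjusted p = 0.0357), with 0.45, 0.86 and 0.85 in Tau-S199E and -2.41, -0.42 and -0.15 in Tau-WT libraries. Tau-WT library 1 carried much of that difference, which was 1.0 without it (limma adjusted p = 0.0905). The call was also lost without Tau-S199E library 10, 11 or 12 or Tau-K174Q library 5, with limma adjusted p from 0.0505 to 0.0895. With libraries centred on their medians the difference was 1.17 (limma adjusted p = 0.127), and in the fit on the 2 constructs alone the adjusted p was 0.0854. DSTN had -0.18, -0.97 and -1.31 SD units with Tau-S199E and 0.45, 1.10 and 0.26 with Tau-WT, a difference of -1.43 (SE 0.64) that did not pass (limma adjusted p = 0.0607). It passed with moderated variances (limma adjusted p = 0.0117), in the fit on the 2 constructs alone (0.0431), with libraries centred on their medians (0.0368) and on ranks (0.0236), and also without Tau-K174Q-S199E library 17 (0.0192) or 18 (0.0240). Its values with Tau-K174Q-S199E spread from -0.50 in library 18 to 2.27 in library 17, the widest range of any construct in that gene. The annotated coding sequences of CFL1 and DSTN used here are 612 and 495 bases long. They were identical at 326 of 612 aligned columns, 53.3%, with gaps counted as differences. At the end of CFL1 27.4% of the words are shared with other genes, mostly its pseudogenes such as CFL1P2, and none at the end of DSTN are. The CFL1 transcript used has a 3′ untranslated region of 95 bases, so its window of 300 bases reaches into coding sequence. That of DSTN has 2773 bases and its window does not, so the shares of these genes are not alike.

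The tropomyosins, coiled-coil proteins that lie along actin filaments and set which proteins can bind them, all fell with Tau-S199E. TPM4 (chr19:16067021-16103005, plus strand) had -0.79, -0.74 and -1.82 SD units with Tau-S199E, -0.58, -0.19 and -0.19 in Tau-K174Q cells, 0.74, 0.51 and -0.70 with Tau-K174Q-S199E, and 0.99, 1.45 and 1.31 with Tau-WT. TPM1 (chr15:63042632-63071915, plus strand) had -0.86, -0.52 and -1.45 SD units with Tau-S199E, -0.81, -0.71 and 0.34 in Tau-K174Q cells, 0.91, 0.81 and -0.93 with Tau-K174Q-S199E, and 0.70, 1.80 and 0.72 with Tau-WT. TPM3 averaged -0.97 ± 0.49, -0.39 ± 0.45, 0.11 ± 0.98 and 1.24 ± 0.35 SD units with the constructs in the same order. In each of the 3 genes all Tau-WT libraries were positive, all Tau-S199E libraries negative, and library 18 of Tau-K174Q-S199E was on the side of Tau-S199E. The differences from Tau-WT were -2.37 SD units for TPM4 (SE 0.42), -2.02 for TPM1 (SE 0.59) and -2.21 for TPM3 (SE 0.50), with limma adjusted p = 0.00969, 0.0169 and 0.0104. The call of TPM1 was lost without library 12 (limma adjusted p = 0.0587) and without Tau-WT library 2 (0.0535). At the end of TPM4 44.1% of the words also occur in AC098614.1, a transcribed processed pseudogene. How many reads of TPM4 this concerns was not measured, so its value is uncertain.

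Among the myosins described here, MYO1C, a membrane-linked class I myosin, and MYO19, a myosin of mitochondria, fell, while MYO10, a myosin of filopodia, and MYL12B, a regulatory light chain of non-muscle myosin II, rose. MYL12B (chr18:3261479-3278431, plus strand) had 0.73, -0.02 and 1.77 SD units with Tau-S199E, 0.92, 0.50 and 0.08 in Tau-K174Q cells, -0.16, -1.42 and 0.82 with Tau-K174Q-S199E, and -1.17, -1.23 and -0.82 with Tau-WT (difference 1.90, SE 0.62, limma adjusted p = 0.0226). MYO1C had -1.36, -0.02 and -1.59 SD units with Tau-S199E, -0.25, -0.73 and 0.03 in Tau-K174Q cells, 0.83, 1.29 and -0.84 with Tau-K174Q-S199E, and 0.26, 1.38 and 1.0 with Tau-WT. The Tau-S199E and Tau-WT libraries of MYO1C did not overlap, and library 18 of Tau-K174Q-S199E was negative where libraries 16 and 17 were positive. MYO1C differed by -1.87 (SE 0.64), MYO19 by -1.78 (SE 0.64) and MYO10 by 1.93 (SE 0.60), with limma adjusted p = 0.0262, 0.0304 and 0.0202.

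Without library 12 the calls of MYL12B, MYO1C, MYO19 and MYO10 were lost (limma adjusted p = 0.0769, 0.0861, 0.0895 and 0.068). They were also lost without Tau-WT library 1 (MYL12B and MYO19, 0.0536 and 0.0952), without Tau-WT library 2 (MYL12B, MYO1C and MYO10, with limma adjusted p from 0.0588 to 0.0779), without Tau-WT library 3 (MYO1C, MYO10 and MYO19, from 0.0506 to 0.0635) and without Tau-S199E library 10 (MYO1C and MYO19, 0.0678 and 0.0857). That of MYO19 was lost in the fit on the 2 constructs alone as well (0.0804).

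SEPT11, the only septin in the table and a GTPase that forms filaments beside actin and microtubules, fell with Tau-S199E. It had -0.61, -0.47 and -2.07 SD units with Tau-S199E, -0.15, 0.10 and -0.29 in Tau-K174Q cells, 1.25, 0.21 and -0.92 with Tau-K174Q-S199E, and 0.83, 0.50 and 1.62 with Tau-WT (difference -2.03, SE 0.62, limma adjusted p = 0.0192). Its call was lost without library 12 (limma adjusted p = 0.0647) and without Tau-WT library 3 (0.0566). ACTR5, an actin-related protein that the rule takes by name, is a nuclear subunit of the INO80 chromatin remodelling complex rather than a part of actin filaments. It rose by 2.41 SD units (SE 0.36, limma adjusted p = 0.00969), the largest difference of the 36 in SD units. Its deposited fold change, whose comparison is not named, was not the largest in size. ACTR5 had 0.97, 1.08 and 1.73 SD units with Tau-S199E, 0.91, -0.05 and 0.00 in Tau-K174Q cells, -0.50, -0.79 and 0.09 with Tau-K174Q-S199E, and -1.18, -1.46 and -0.81 with Tau-WT.

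**Figure D4:**
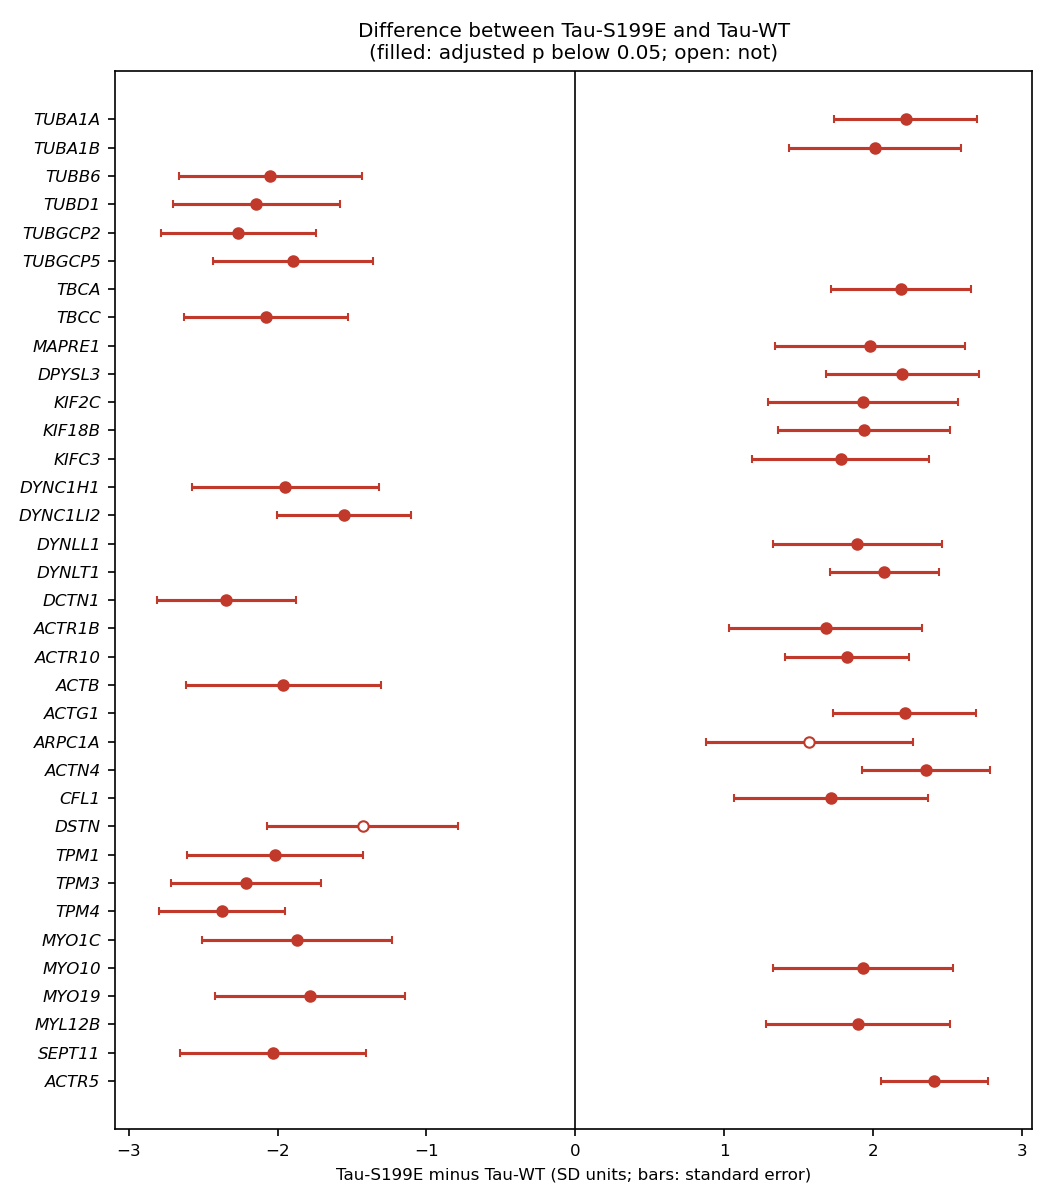
Difference between Tau-S199E and Tau-WT in SD units for 35 of the cytoskeleton genes, with its standard error from the fit over 12 libraries; filled points passed an adjusted p of 0.05 over the whole table. Points run from -2.37 (TPM4) to 2.41 (ACTR5), and the open points are ARPC1A and DSTN.

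The list of other cytoskeleton genes held 163 names, 30 of them in the table. With Tau-S199E against Tau-WT 15 rose and 12 fell; of all tabulated genes 90.0% passed, 48.3% higher and 41.8% lower, so these counts are near the background. The 4 whose adjusted p was smallest in what the authors deposited were LMNA, which encodes lamins A and C, TMSB4X, a thymosin that sequesters actin monomers, PFN1, a profilin that feeds monomers to growing filaments, and CKAP5, a microtubule polymerase. TMSB4X rose by 2.23 SD units (SE 0.43, limma adjusted p = 0.00981; deposited log2 fold change -4.05) and PFN1 by 1.98 (SE 0.50, limma adjusted p = 0.0122; -2.44). CKAP5 fell by 2.22 (SE 0.50, limma adjusted p = 0.0104; 1.47). LMNA differed by -1.10 (SE 0.51) and did not pass (limma adjusted p = 0.066; 1.6). The comparison behind the deposited fold changes is not named, so they cannot be read as sizes of these differences.

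Members with a positive deposited sign, those lower with Tau-S199E, had longer annotated transcripts than members with a negative sign, with medians of 3617 and 2256 bases. For the other protein-coding genes of the table the medians were 2818.5 bases (720 genes) and 2431 bases (829 genes). Coding length had medians of 1359 and 1251 bases in the 17 and 19 members, against 1401 and 1041 bases in the other genes. The range was wide, since DYNC1H1, with 20003 bases, was lower and MYO10, with 11456, was higher with Tau-S199E. These lengths are of the basic GENCODE 29 transcript with the longest coding sequence, and no test was made of the difference.

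With Tau-K174Q against Tau-WT none of the 36 members passed, as in the whole table, where 0% did (limma, ordinary variances). At an unadjusted p under 0.05 there were 18 members, 9 higher and 9 lower, against 51.9% of the table (32.4% higher and 19.5% lower). Moderated variances called 20 members and 59.9% of the table. In 31 members the 3 libraries of Tau-K174Q did not overlap those of Tau-WT, against 80.7% of the table. The largest differences in SD units were those of DYNLT1 (2.22, SE 0.37, limma adjusted p = 0.066) and DYNC1LI2 (-1.99, SE 0.45, limma adjusted p = 0.066), followed by TUBGCP5 (-1.93) and DYNLL1 (1.79). Both comparisons with Tau-WT use the same Tau-WT libraries. Side by side, ACTN4 differed by 2.36 with Tau-S199E against 0.77 with Tau-K174Q, and TBCC by -2.08 against -0.51.

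Set against each other, Tau-K174Q and Tau-S199E gave no member that passed, and 0.0597% of the table did; an unadjusted p under 0.05 was reached by 9 members, against 16.1% of the table, and moderated variances called 0. Of these 9, ACTN4 (-1.58), DPYSL3 (-1.49), TUBA1B (-1.47), TUBA1A (-1.32), ACTG1 (-1.17) and ACTR5 (-0.97) had lower values with Tau-K174Q and TBCC (1.56), TUBGCP2 (1.30) and DCTN1 (1.25) higher ones. The libraries of these 2 constructs did not overlap in 13 members, against 36.2% of the table. In 33 members the mean of Tau-K174Q lay between the means of Tau-S199E and Tau-WT, against 84.4% of the table; the exceptions were TUBGCP5, DYNC1LI2 and DYNLT1.

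With Tau-K174Q-S199E none of the members passed against Tau-WT (0% of the table), against Tau-S199E (0.119% of the table) or against Tau-K174Q (0% of the table). Against Tau-WT an unadjusted p under 0.05 was reached by 2 members, DYNLT1 (1.17, SE 0.37) and TPM4 (-1.07, SE 0.42), and by 7.58% of the table, and moderated variances called 0. The libraries of Tau-K174Q-S199E did not overlap those of Tau-WT in 9 members, against 11.6% of the table. TUBA1A, MAPRE1, DYNLT1 and ACTR5 had higher values in all 3 libraries (7.28% of the table), and TUBD1, TUBGCP5, DCTN1, TPM3 and TPM4 lower ones (4.30%).

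Against Tau-S199E the unadjusted count was 17 members and 56.4% of the table, and moderated variances called 27 members and 68.8%. The libraries did not overlap in 13 members, against 43.4% of the table. The largest difference there in SD units was that of ACTR10 (-2.02, SE 0.41, limma adjusted p = 0.0644). Against Tau-K174Q the unadjusted count was 3 members, DYNC1LI2 (1.76), ACTR10 (-1.56) and DYNLT1 (-1.05), and 8.23% of the table, and moderated variances called 0 members and 0.119% of the table. The libraries did not overlap in 5 members, these 3, ARPC1A and DSTN, against 11.2% of the table. The 17 members with a positive deposited sign averaged -0.99 ± 0.49 SD units with Tau-S199E, -0.31 ± 0.24 with Tau-K174Q, 0.28 ± 0.82 with Tau-K174Q-S199E and 1.02 ± 0.10 with Tau-WT (SD over libraries). The 19 with a negative sign averaged 1.03 ± 0.62, 0.32 ± 0.28, -0.40 ± 0.60 and -0.96 ± 0.23. Over all genes of each sign in the table the means were -0.99, -0.32, 0.38 and 0.93, and 0.96, 0.39, -0.35 and -0.99. The sign chose these sets, so the averages are a description.

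A pair of libraries stood apart in the members as in the table. Library 12 of Tau-S199E was the library farthest from 0 in 21 members, 58.3% of them, against 50.6% of the table. Without it 16 members passed in Tau-S199E against Tau-WT, 8 higher and 8 lower, against 49.7% of the table, and every member kept its direction. Among these 16 were TUBA1A, TUBD1, TUBGCP2, TUBGCP5, TBCA, TBCC, DPYSL3, DYNLT1, DCTN1, ACTR10, ACTG1, ACTN4, TPM3, TPM4 and ACTR5. Library 18 of Tau-K174Q-S199E lay beyond libraries 16 and 17 towards the Tau-S199E mean in 29 members, against 88.6% of the table. Without library 18 there were 28 members that passed in Tau-K174Q-S199E against Tau-S199E, 14 in each direction and 78.5% of the table, and 14 in Tau-K174Q against Tau-WT, 8 higher and 6 lower and 40.3% of the table. The part of these libraries in the differences between constructs beyond these values was not tested.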

How the data were processed

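Polyadenylated RNA of 12 libraries was sequenced with a 3′ kit, per the labels' protocols, with 400 ng of RNA going into each library. Tools listed in the submitters' processing notes are RSEM 1.2.31, STAR 2.5.3a and DESeq2, and the build listed is GRCh38, without saying which step used which. How values were transformed, genes filtered and strand handled is not stated in the sources used here. The 12 library columns hold a score: the authors standardised each gene, as the values show (largest absolute gene mean 5.7e-15, SD 1). The log2 fold changes and adjusted p-values are deposited by the authors, per the file headers. Depth is unknown, so no interval or floor is given.

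The whole table was fitted with limma 3.58.1 (R 4.3.3), a mean per construct over 12 libraries with 8 residual degrees of freedom. Contrasts were tested two-sided with each gene's own residual variance and Benjamini-Hochberg adjustment over 1676 genes, threshold 0.05. The fit was also run on simulated tables of independent noise in which 200 genes were shifted in a single construct. Those tables were not preselected as the deposited one was, so they do not show the error rate here. Columns carry a construct, a library number and a further code of a letter and a digit, but no replicate number. The code of Tau-WT library 1 lies apart from those of the other libraries. What the code stands for is not stated, and its part in the values was not tested.

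Members and lists were chosen with earlier results of these data known. Of the members 35 are named; 1 is counted in the totals but is not reported here, nor shown in the figures. Values in every library are given for the 2 members of each role with the smallest deposited adjusted p, where reported, and for others that share a complex, family or a library effect with them, picked after their values were seen. Gene positions come from GENCODE 29 (GRCh38), promoters from RefSeq. Shared words are 31-base stretches of the last 300 bases of a transcript found in any transcript of another gene. Alternatives were moderated variances, fits on the constructs compared, median-centred libraries, ranks, each library left out, and libraries 12 and 18 left out together, the last chosen after the data were seen.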

Additional observations from a re-analysis of the deposited data

Results flagged for a closer look

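The effect of adding K174Q beside S199E, minus its effect alone, differed from 0 in all 36 members (limma, adjusted p from 0.0182 to 0.0464), against 97.0% of the table. Its sign is that of the deposited fold change in every gene of the table, so these values, in SD units, are no separate evidence. It was -2.66 for TUBA1A, -2.18 for TUBA1B, 2.40 for TUBB6, 2.62 for TUBD1, 2.09 for TUBGCP2, 2.84 for TUBGCP5, -3.07 for TBCA and 2.13 for TBCC. Of the microtubule-associated genes and kinesins, MAPRE1 had -2.31, DPYSL3 -2.31, KIF2C -2.51, KIF18B -2.87 and KIFC3 -2.92. In dynein and dynactin it was 2.57 for DYNC1H1, 3.31 for DYNC1LI2, -2.85 for DYNLL1, -3.12 for DYNLT1, 2.55 for DCTN1, -2.67 for ACTR1B and -3.38 for ACTR10, the last being the largest of the 36 in SD units.

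In the actin group it was 2.19 for ACTB, -2.80 for ACTG1, -2.57 for ARPC1A, -2.33 for ACTN4, -2.65 for CFL1 and 2.81 for DSTN. The tropomyosins had 2.67 (TPM1), 2.72 (TPM3) and 2.87 (TPM4). The myosins had 2.61 (MYO1C), -2.39 (MYO10), 2.71 (MYO19) and -2.65 (MYL12B), SEPT11 had 2.32 and ACTR5 -3.10.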

How the results depend on the processing

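In Tau-S199E against Tau-WT, where 34 members passed, the direction of all 36 was kept under every alternative run, and 28 to 36 passed with moderated variances, the 2 constructs alone, median-centred libraries, ranks, or without libraries 12 and 18 together; with 1 library left out 16 to 35 passed, the lowest without library 12. In Tau-K174Q against Tau-WT, where 0 passed, 20 did with moderated variances, 15 in the fit on the 2 constructs, 2 on ranks and 21 without libraries 12 and 18 together, and 0 to 14 with 1 library left out, the highest without library 18. In Tau-K174Q-S199E against Tau-S199E, also 0, it was 27 with moderated variances, 7 on ranks, 15 without both libraries and 0 to 28 with 1 left out, the highest without library 18. Tau-K174Q-S199E against Tau-K174Q, also 0, gave 7 without both libraries and 0 to 2 with 1 left out, and Tau-K174Q against Tau-S199E 0 to 1. Tau-K174Q-S199E against Tau-WT stayed at 0. The interaction, with 36, ranged from 22 (without library 12) to 35 with 1 left out, with 23 without Tau-K174Q library 4. The cause of these changes was not tested. Centring shifted libraries by their medians, from -0.435 (Tau-WT library 2) to 0.626 (Tau-S199E library 12) SD units. No paired analysis was possible because the columns carry library numbers and not the replicate numbers of the labels. Depth is unknown, so it cannot be said which values rest on few reads.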
